A study of Mus musculus with 30 samples.

Results

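The genes described here are 10 NOD-like receptors and inflammasome components: the sensors Nlrp3, Nod1, Nod2 and Nlrc5, the kinase Ripk2, the adaptor Pycard, the caspases Casp1, Casp4 and Casp8, and the pore-forming effector Gsdmd. They were chosen by name, as the rows of the gene count table whose Ensembl identifiers map to these symbols, and are 10 of the 54532 genes in that table. The rule uses no expression value. All 10 passed the filter on low counts that kept 12393 genes.

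RNA was sequenced from mouse bone-marrow-derived dendritic cells (BMDCs), grown for 6 days from marrow of the tibia and femur with GM-CSF, a growth factor that turns myeloid precursors into dendritic and macrophage-like cells. The cells came from wild-type mice (WT) or from mice deficient in Nlrx1 (KO), itself a NOD-like receptor family member that sits at mitochondria. RNA of both genotypes was taken without challenge (0 h) and at 3, 6, 9 and 12 h of culture with live conidia (spores) of the mould Aspergillus fumigatus, strain AF29, added at as many conidia as cells, giving 10 groups of 3 libraries. The 0 h groups had met no conidia, and all later groups held live fungus. No group was cultured to 3, 6, 9 or 12 h without conidia. Hours in culture and exposure to the fungus therefore cannot be told apart. The labels give neither the strain, age or sex of the mice, nor which part of Nlrx1 was deleted, nor whether replicate libraries stand for different mice or wells. The spread behind the p-values is therefore that between libraries and may be technical.

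NOD-like receptors sense microbial products and damage inside the cell. NOD1 and NOD2 bind peptidoglycan fragments and act through the kinase RIPK2 on NF-kappaB and MAP kinases. NLRP3 joins the adaptor ASC, the product of Pycard, and caspase-1 into an inflammasome that cuts the IL-1beta precursor and gasdermin D, whose fragment opens pores in the membrane. Caspase-11, the product of mouse Casp4, cuts gasdermin D directly on sensing lipopolysaccharide, and caspase-8 starts apoptosis, holds back necroptosis and can also cut gasdermin D. NLRC5 is a transactivator of MHC class I genes. In macrophages and dendritic cells, Nlrp3 and Casp4 are textbook examples of inflammasome genes whose transcripts are induced by a priming signal, while Pycard and Casp1 are usually present beforehand. Transcript counts show the first of these steps and not the assembly or cleavage of the proteins.

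The libraries held between 1722384 and 3509429 counts (median 2492886). Nlrx1 checked the labels: it had 13 to 46 counts in the 15 WT libraries and 0 to 14 in the 15 KO libraries, and it was lower in KO by a log2 difference of -1.87 ± 0.30 (SE of the fit, edgeR's quasi-likelihood test averaged over times, adjusted p = 1.71e-05). The dendritic cell marker Itgax (CD11c) was at 1164 to 1409 counts scaled to a total of 1000000 (CPM) in the 30 libraries, whereas Flt3 and Cd209a, further dendritic cell markers, did not pass the count filter. A list of 10 macrophage markers summed to between 2030 and 3504 CPM. Transcripts listed as markers of both kinds of cell were thus present, which does not show separate cells of each kind. A list of 10 neutrophil markers summed to between 190 and 975 CPM. Lists for B cells and for T and NK cells summed to at most 6.36 and 4.43 CPM. In such bulk samples, fewer cells of a type and less RNA per cell cannot be told apart.

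Upstream sequence is shown first for 3 members: Nlrp3 and Casp4, whose transcripts rose most at 12 h in KO cells, and Casp1, the direct neighbour of Casp4, which did not pass that test. The letters come from RefSeq on mouse build GRCm38.p6, on the + strand, 5′ to 3′, and end at the base before the annotated gene. Capitals mark matches to the NF-kappaB consensus on either strand, and the Casp1 stretch holds none. The coordinates are chr11:59541319-59541567 for Nlrp3, chr9:5308599-5308827 for Casp4 and chr9:5298267-5298516 for Casp1.
Nlrp3: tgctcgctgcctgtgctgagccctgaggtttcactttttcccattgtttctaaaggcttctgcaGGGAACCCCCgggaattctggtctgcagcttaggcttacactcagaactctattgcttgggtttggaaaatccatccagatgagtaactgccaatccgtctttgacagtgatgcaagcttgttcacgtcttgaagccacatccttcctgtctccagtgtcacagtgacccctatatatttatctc
Casp4: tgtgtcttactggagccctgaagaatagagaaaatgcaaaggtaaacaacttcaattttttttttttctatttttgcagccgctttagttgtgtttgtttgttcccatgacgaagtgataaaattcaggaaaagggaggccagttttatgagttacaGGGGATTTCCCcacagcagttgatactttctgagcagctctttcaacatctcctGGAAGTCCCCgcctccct
Casp1: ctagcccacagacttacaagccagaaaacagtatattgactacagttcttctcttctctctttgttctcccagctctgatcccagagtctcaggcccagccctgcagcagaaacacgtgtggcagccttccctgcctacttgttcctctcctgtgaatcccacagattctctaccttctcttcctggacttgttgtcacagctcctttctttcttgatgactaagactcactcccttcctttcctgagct

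The Nlrp3 stretch holds 1 match, GGGAACCCCC, which begins 186 bases before the RefSeq transcript start. The Casp4 stretch holds a pair of overlapping matches, GGGGATTTCC and GGGATTTCCC, which begin 93 and 92 bases before the start, and a separate match on the opposite strand, GGAAGTCCCC as read here, which begins 39 bases before it. RefSeq gave 10 upstream windows for 7 of the 10 members. The consensus was found in the 250 bases before the start in 3 of these 10 windows, both of Casp4, which overlap, and 1 of 2 of Nlrp3, against 7.25% of 32851 windows of all genes. Both strands were searched, and a match of letters is a description and does not show that a factor bound there.

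Nlrp3 lies on chromosome 11 (GRCm38, 59541568 to 59566956, + strand, ENSMUSG00000032691) and encodes the sensor of the canonical inflammasome. Its transcript stayed near the resting level for 9 h and then rose in both genotypes. In WT cells the 3 libraries were at 44.1, 73.4 and 50.6 CPM at 0 h, at 71.7, 36.7 and 82.4 CPM at 9 h, and at 129.5, 132.2 and 145.4 CPM at 12 h. In KO cells they were at 35.5, 61.8 and 42.0 CPM at 0 h, at 54.1, 56.4 and 53.7 CPM at 9 h, and at 200.5, 167.1 and 175.1 CPM at 12 h. Within each genotype every 12 h library was above every library of the earlier times, and at 12 h all 3 KO libraries were above all 3 WT libraries.

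The rise of Nlrp3 from 0 to 12 h was 1.28 ± 0.25 on the log2 scale in WT (2.43-fold, adjusted p = 0.000721) and 1.94 ± 0.26 in KO (3.84-fold, adjusted p = 6.77e-06). The last 3 h alone accounted for 1.09 ± 0.24 in WT (adjusted p = 0.0043) and 1.72 ± 0.25 in KO (adjusted p = 6.98e-05). Nlrp3 was the 1 member called between 9 and 12 h in each genotype, where 5.16% of all genes rose in WT and 2.65% in KO. These 4 calls passed under every alternative tried. The difference in rise between the genotypes did not pass its test: the KO change exceeded the WT change by 0.66 ± 0.36 (95% interval -0.078 to 1.404, adjusted p = 0.494). At 3 h the order of the genotypes was the other way round, with KO libraries at 34.7, 38.1 and 35.7 CPM and WT libraries at 68.3, 48.1 and 69.2 CPM, a KO minus WT difference of -0.78 ± 0.28 that missed the threshold (adjusted p = 0.099). That difference passed when only those 6 libraries were fitted (adjusted p = 0.0206) or without WT 9 h replicate 2 (adjusted p = 0.0389), and the authors' deposited table for 3 h lists Nlrp3 as higher in WT by 0.78 on the log2 scale with an adjusted p of 0.0261.

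**Figure D1:**
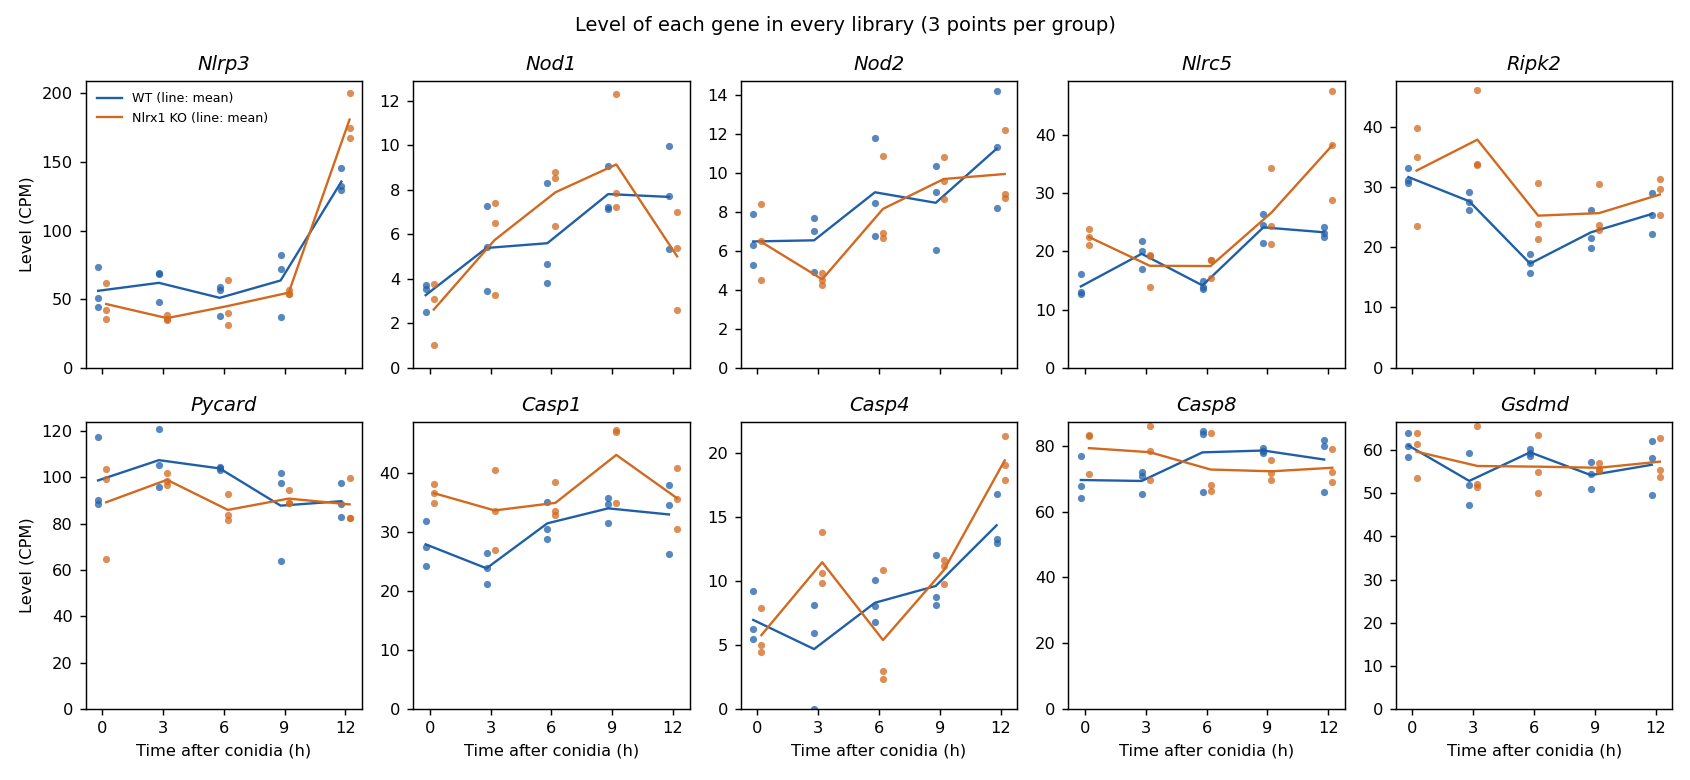
Level of each of the 10 genes in CPM (vertical axis, from 0) against hours after conidia were added (horizontal axis). Points are single libraries, 3 per group, and lines join the group means of WT (blue) and Nlrx1 KO (orange). Nlrp3 and Casp4 are highest at 12 h in both genotypes, and Pycard, Casp8 and Gsdmd run flat.

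Nod1 (chromosome 6, 54923949 to 54972612, - strand, ENSMUSG00000038058) encodes the sensor of diaminopimelic-acid-containing peptidoglycan. It had the lowest median level of the members, with 2 to 36 counts per library, and it was higher at 9 h than at 0 h in every library of both genotypes. WT libraries were at 3.53, 2.52 and 3.73 CPM at 0 h, at 9.05, 7.14 and 7.22 CPM at 9 h, and at 9.96, 7.74 and 5.32 CPM at 12 h. KO libraries were at 1.00, 3.75 and 3.09 CPM at 0 h, at 6.35, 8.52 and 8.78 CPM at 6 h, at 12.3, 7.24 and 7.85 CPM at 9 h, and at 2.62, 7.02 and 5.38 CPM at 12 h. The WT groups at 9 and 12 h do not overlap with 0 h, and the KO group at 12 h does.

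In WT cells Nod1 rose by 1.24 ± 0.41 at 9 h (adjusted p = 0.0435) and by 1.24 ± 0.41 at 12 h (2.36-fold, adjusted p = 0.0287). In KO cells it rose by 1.54 ± 0.45 at 6 h (adjusted p = 0.0309) and 1.74 ± 0.44 at 9 h (adjusted p = 0.00522), and its difference at 12 h was 0.91 with an adjusted p of 0.199. Of these 4 calls 3 rested on single libraries. The WT call at 9 h was lost without any 1 of the 6 libraries compared (adjusted p 0.0689 to 0.157), without WT 12 h replicate 2 (0.0516) and without KO 6 h replicate 2 (0.0504), with an adjusted p of 0.0597 in DESeq2. The WT call at 12 h was lost without 0 h replicate 1 (0.0629), 2 (0.112) or 3 (0.0528) and without 12 h replicate 1 (0.147) or 2 (0.0615), and the KO call at 6 h without 0 h replicate 1 (0.132) or 3 (0.0656) and 6 h replicate 2 (0.0857) or 3 (0.0979). The KO call at 9 h kept its side of the threshold wherever edgeR tested it, with a highest adjusted p of 0.0449. With no count filter the other 3 were lost (0.120 and 0.0933 in WT, 0.133 in KO), and the KO one at 6 h also in the fit of the 6 libraries alone (0.107).

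Nod2 (chromosome 8, 88647315 to 88688474, + strand, ENSMUSG00000055994), the sensor of muramyl dipeptide, had 10 to 46 counts per library. WT libraries were at 5.30, 6.29 and 7.88 CPM at 0 h and at 11.3, 14.2 and 8.19 CPM at 12 h. KO libraries were at 6.51, 4.497 and 8.39 CPM at 0 h and at 8.72, 8.93 and 12.2 CPM at 12 h. In both genotypes the 12 h libraries lie above the 0 h libraries, in WT by a margin of 8.19 against 7.88 CPM. The WT rise was 0.81 ± 0.28 (1.75-fold, adjusted p = 0.0383) and the KO difference 0.62 (adjusted p = 0.167). The WT call was lost without 0 h replicate 1 (adjusted p = 0.156) or 2 (0.0998), without 12 h replicate 1 (0.0849) or 2 (0.193), with no count filter (0.123), in the fit of the 6 libraries alone (0.0767) and in DESeq2 (0.0872). In the other times the Nod2 groups run from 4.54 ± 0.33 CPM (SD, n = 3) in KO at 3 h to 9.70 ± 1.09 CPM in KO at 9 h.

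Nlrc5 (chromosome 8, 94434356 to 94527272, + strand, ENSMUSG00000074151) differed both with time and with genotype. WT libraries were at 12.7, 13.0 and 16.2 CPM at 0 h, at 13.6, 14.9 and 13.95 CPM at 6 h, at 24.5, 21.4 and 26.5 CPM at 9 h and at 22.4, 23.2 and 24.2 CPM at 12 h. KO libraries started at 21.0, 22.5 and 23.9 CPM, lay at 18.5, 18.5 and 15.5 CPM at 6 h, and reached 47.5, 38.3 and 28.9 CPM at 12 h. The lowest resting KO library was above the highest resting WT library, and the same held at 6 and 12 h.

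In WT cells Nlrc5 rose by 0.79 ± 0.19 at 9 h (adjusted p = 0.00491) and by 0.74 ± 0.19 at 12 h (1.66-fold, adjusted p = 0.0061). In KO cells the rise at 12 h was 0.77 ± 0.17 (1.704-fold, adjusted p = 0.0024), so the change from each genotype's own resting level differed by 0.03. These 3 calls passed under every alternative. The WT step from 6 to 9 h, 0.77 ± 0.19, made Nlrc5 the 1 member among 0.524% of all genes that rose in it (adjusted p = 0.0327), and that call was lost without 6 h replicate 1 (0.121), 2 (0.0831) or 3 (0.116), without 9 h replicate 1 (0.0842) or 3 (0.190), and in DESeq2 (0.0805). The KO step from 9 to 12 h was not called (0.52, adjusted p = 0.0757), although it was without KO 9 h replicate 2 (0.0104) or KO 12 h replicate 3 (0.0191). An antisense gene, 9330175E14Rik, shares 78 exon bases with Nlrc5, and whether the counting used strand is not known.

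Ripk2 (chromosome 4, 16122733 to 16163647, - strand, ENSMUSG00000041135), the kinase below NOD1 and NOD2, was the 1 member that fell. WT libraries were at 33.2, 30.6 and 31.1 CPM at 0 h, at 15.7, 18.8 and 17.3 CPM at 6 h and at 29.1, 25.4 and 22.1 CPM at 12 h. The decrease at 6 h was -0.87 ± 0.18 on the log2 scale (adjusted p = 0.00298) and passed under every alternative; 2.67% of all genes fell in that comparison. By 12 h the difference from rest was -0.30 and was not called. In KO cells the libraries were at 23.5, 39.7 and 34.9 CPM at 0 h, at 46.1, 33.9 and 33.6 CPM at 3 h and at 30.6, 21.3 and 23.8 CPM at 6 h, with a wide resting group and a difference at 6 h of -0.40 (adjusted p = 0.224). At 9 h the differences from rest were -0.49 in WT (adjusted p = 0.0671) and -0.37 in KO (adjusted p = 0.198). Without KO 0 h replicate 1, the lowest resting KO library, both passed (0.0388 and 0.0406), and the WT one also passed without WT 9 h replicate 3 (0.0484).

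Pycard (chromosome 7, 127989708 to 127993867, - strand, ENSMUSG00000030793) encodes ASC, the adaptor that joins NLRP3 to caspase-1. It was not called in any of the comparisons with time or genotype. Its libraries lay between 64.0 and 121.1 CPM with a median of 96.3 CPM, and from 0 to 12 h it differed by -0.14 in WT and -0.02 in KO, each a smaller value than its own standard error. A transcript of unknown coding status on the opposite strand, Gm45205, shares 485 exon bases with it, so some of its counts could belong to that gene if counting ignored strand.

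Casp1 (chromosome 9, 5298517 to 5307265, + strand, ENSMUSG00000025888), the protease of the canonical inflammasome, did not pass the test with time in either genotype, with 12 h differences of 0.23 in WT and -0.05 in KO. WT libraries were at 27.5, 24.3 and 32.0 CPM at rest and at 26.3, 34.7 and 38.1 CPM at 12 h. KO libraries were at 35.0, 38.2 and 36.7 CPM at rest and at 41.0, 30.6 and 35.7 CPM at 12 h. The genotypes do not overlap at 0 h, where KO was higher, and overlap at 12 h.

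Casp4 (5308828 to 5336783 on the same strand, ENSMUSG00000033538) begins 1562 bases beyond the end of Casp1, yet its levels moved differently. WT libraries were at 9.18, 5.45 and 6.22 CPM at 0 h and at 13.3, 13.0 and 16.8 CPM at 12 h. KO libraries were at 5.01, 7.87 and 4.42 CPM at 0 h and at 17.9, 21.4 and 19.1 CPM at 12 h. In each genotype the 12 h libraries lie above all resting ones, and at 12 h all KO libraries lie above all WT ones. The rise was 1.73 ± 0.44 in KO (3.31-fold, adjusted p = 0.0058) and passed under every alternative, whereas the WT difference of 1.02 ± 0.42 missed the threshold (adjusted p = 0.0928).

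The spread of Casp4 in the earlier groups bears on that WT value. Its counts at 3 h in WT were 20, 0 and 12, the 0 in replicate 2 allowing a level of up to 1.61 CPM from counting error alone, and at 6 h in KO they were 4, 23 and 7. The WT difference at 12 h passed without that 3 h library (adjusted p = 0.0258) and in the fit of the 6 libraries alone (adjusted p = 0.0232). The KO change exceeded the WT change by 0.71 ± 0.61 (adjusted p = 0.741), so no difference in the rise between genotypes was detectable.

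Casp8 (chromosome 1, 58795374 to 58847503, + strand, ENSMUSG00000026029) and Gsdmd (chromosome 15, 75862327 to 75867408, + strand, ENSMUSG00000022575) varied least. Casp8 lay between 64.2 and 86.1 CPM over the 30 libraries, a coefficient of variation of 9.09%, and Gsdmd between 47.3 and 65.6 CPM, 8.60%. From 0 to 12 h Casp8 differed by 0.12 in WT and -0.11 in KO, and Gsdmd by -0.11 and -0.06, none of them called. At the other end of the scale the coefficient of variation was 63.8% for Nlrp3, 51.0% for Casp4 and 43.2% for Nod1. The adaptor Pycard (13.3%) was nearer to Casp8 and Gsdmd than to the sensors. These coefficients include counting error, which is larger at low counts, and they were not corrected for it. The median count per library was 14.5 for Nod1 and 26 for Casp4. It was 136 for Nlrp3, 142 for Gsdmd, 188 for Casp8 and 238 for Pycard.

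**Figure D2:**
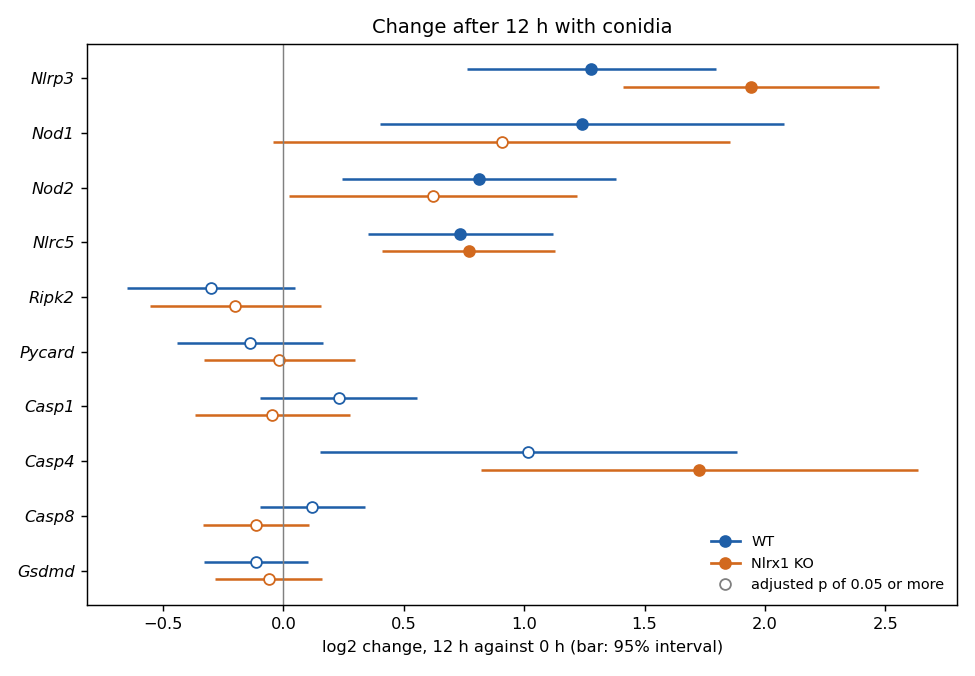
Log2 change from 0 to 12 h (horizontal axis) for each gene, with 95% intervals of the fit (bars), in WT (blue) and Nlrx1 KO (orange). Filled points passed an adjusted p of 0.05. Nlrp3 and Nlrc5 are filled for both genotypes, Nod1 and Nod2 for WT and Casp4 for KO.

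Counted over the members, more were called at 12 h than at 3 h, and the same held over all genes. At 3 h edgeR called none of the 10 in either genotype, where 1.02% of all genes were called in WT and 1.22% in KO. In edgeR 1 member was at an unadjusted p under 0.05 in WT and 2 in KO. DESeq2 called 0, but it gave no adjusted p for 3 of the members in each genotype. At 6 h Ripk2 was lower in WT and Nod1 higher in KO, against 3.21% of all genes higher in KO. At 9 h 2 of 10 were higher in WT (5.57% of all genes) and 1 in KO (5.86%). At 12 h 4 of 10 were higher in WT and 3 in KO, against 9.64% and 8.13% of all genes, and none was lower, against 8.47% and 6.58%. The median change of the members at 12 h was 0.48 in WT and 0.30 in KO, beside medians over all genes of 0.0033 and -0.0051. WT and KO comparisons rest on separate 0 h libraries, and Nlrp3 and Nlrc5 were called in both. The steps from 3 to 6 h (1.89% of all genes in WT, 1.46% in KO) and the KO step from 6 to 9 h (1.26%) held no called member by edgeR or DESeq2, with 3, 3 and 2 members at an unadjusted p under 0.05. From 3 to 6 h DESeq2 gave no adjusted p for 2 members in WT and 3 in KO. In the WT step from 3 to 6 h Ripk2 was lower by -0.67 (adjusted p = 0.0645), and this passed at a minimum count of 30 (0.0470) and without KO 0 h replicate 1 (0.0337).

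Levels were compared between members after scaling by exon length. In resting WT cells Pycard (25.98 CPM per kb), Gsdmd (25.7) and Casp8 (24.1) overlapped with each other and lay above Casp1 (18.7), Nlrp3 (13.8) and Ripk2 (11.2), which overlapped with their neighbours in that order. All 3 Ripk2 libraries were above those of Casp4 (1.87 CPM per kb), Nlrc5 (1.64) and Nod2 (1.29), and Nod1 (0.642) was apart at the bottom. In resting KO cells Casp8 (27.4), Gsdmd (25.1), Casp1 (24.5) and Pycard (23.5) each overlapped with the next and lay above Ripk2 (11.6) and Nlrp3 (11.4), so the gap between Casp8 and Casp1 in WT was not seen there. Nlrc5 (2.64), Casp4 (1.55), Nod2 (1.29) and Nod1 (0.515) followed. In both genotypes Nod1 and Nod2 had the lowest means per length at rest. Nod1 was apart from Nod2 in both, but Nod2 overlapped with the gene above it, Nlrc5 in WT and Casp4 in KO. On this scale Nlrp3 stood first at 12 h in both genotypes, at 33.4 CPM per kb in WT and 44.6 in KO. It did not overlap with the gene below it, which was Casp8 in both (26.2 and 25.3). Below Nlrp3 in WT, Casp8, Gsdmd (23.8), Pycard (23.6) and Casp1 (22.1) each overlapped with the next, and Nod1 was last in WT (1.51) and in KO (0.985). These values are levels and depend on the exon length taken from the annotation, which counts all annotated exons of a gene. For Pycard that length is 3800 bases, in a gene that runs from 127989708 to 127993867. If its main transcript uses fewer of these bases, its level per length is understated. The order, with the first place of Nlrp3 at 12 h, therefore holds for this scaling and could change with another length.

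**Figure D3:**
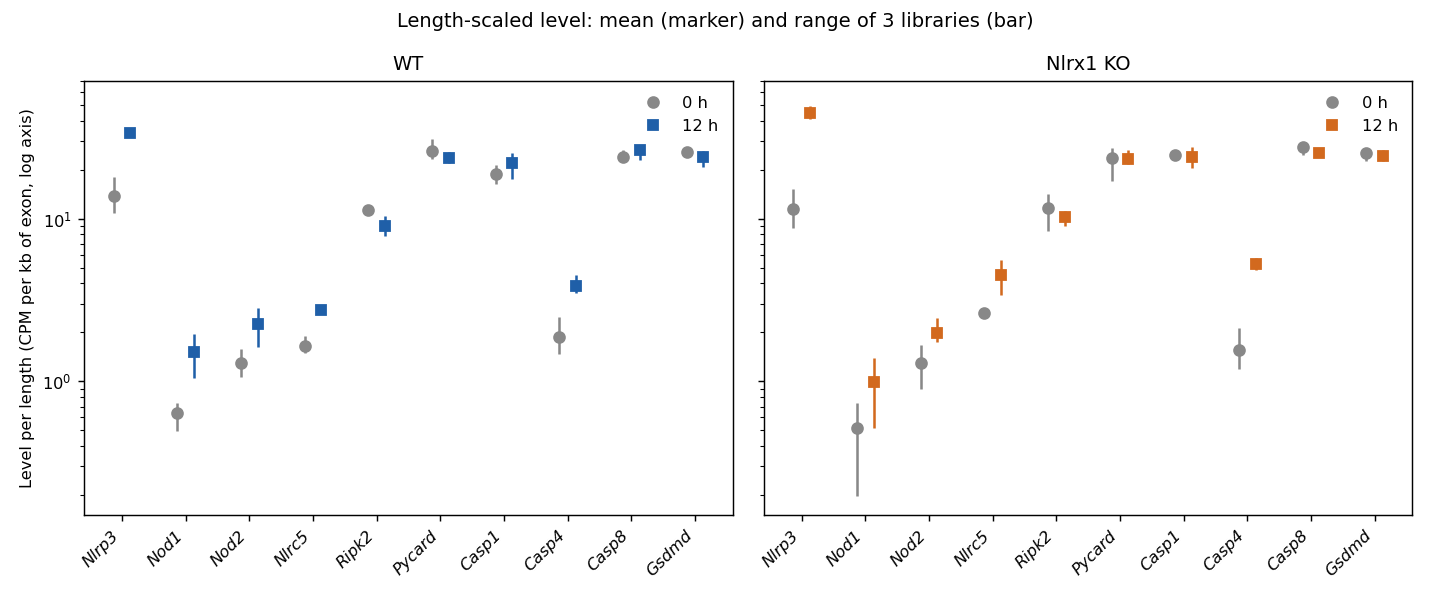
Level per length in CPM per kb of annotated exon (vertical log axis) for each gene at 0 h (grey circles) and 12 h (coloured squares), in WT (left) and Nlrx1 KO (right). Markers are means and bars the range of the 3 libraries. With this exon length Nlrp3 moves from the middle of the order to its top, and Nod1 is lowest in each group shown.

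The comparison of KO with WT cells asks whether these genes depend on Nlrx1. Averaged over the 5 times, 3 of the 10 members were higher in KO and none was lower, where 12.6% of all genes were higher and 12.2% lower. Nlrc5 was higher by 0.34 ± 0.08 (1.27-fold, adjusted p = 0.0033), with 24.5 ± 9.20 CPM over the 15 KO libraries and 19.0 ± 4.75 CPM over the 15 WT libraries (mean ± SD). Casp1 was higher by 0.30 ± 0.07 (1.23-fold, adjusted p = 0.0024), with 36.8 ± 5.57 and 30.1 ± 5.04 CPM. Ripk2 was higher by 0.28 ± 0.08 (1.21-fold, adjusted p = 0.0105), with 30.0 ± 6.96 and 24.9 ± 5.42 CPM. Casp1 and Ripk2 had the higher mean in KO at 5 of 5 times and Nlrc5 at 4 of 5, the exception being 3 h. The Ripk2 call was lost with no count filter (adjusted p = 0.0793). The other 7 members ran from -0.21 (Nlrp3, adjusted p = 0.217) to 0.19 (Casp4), and their median with the 3 called ones was 0.01, as over all genes.

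At single times Nlrc5 was the 1 member called, at 0 h by 0.69 ± 0.19 (adjusted p = 0.0336, 2.26% of all genes higher) and at 12 h by 0.72 ± 0.17 (adjusted p = 0.0169, 1.23% of all genes higher). The 0 h call was lost without WT replicate 1 (0.129) or 2 (0.117), without KO replicate 1 (0.0563), 2 (0.0822) or 3 (0.118), with no count filter (0.153), in the fit of those 6 libraries alone (0.0736) and in DESeq2 (0.0640). The 12 h call was lost without WT replicate 1 (0.0863), 2 (0.0730) or 3 (0.0518), without KO replicate 1 (0.177) or 2 (0.0609), with no count filter (0.110), and in the fit of those 6 libraries alone (0.140). No member was called at 3, 6 or 9 h by edgeR or DESeq2, where 6.92%, 5.78% and 5.06% of all genes were called and 4, 1 and 1 members had an unadjusted p under 0.05. DESeq2 gave no adjusted p for 1 member at 9 h. At 3 h Casp1 was at 26.9, 40.6 and 33.6 CPM in KO and at 23.9, 26.5 and 21.3 CPM in WT (0.51 ± 0.17, adjusted p = 0.0667), and it passed without KO 3 h replicate 1 (0.0299). At 6 h Ripk2 differed by 0.53 with an adjusted p of 0.109, the KO libraries at 30.6, 21.3 and 23.8 CPM all above the WT libraries at 15.7, 18.8 and 17.3 CPM.

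Whether loss of Nlrx1 changed the course over time was tested as an interaction of genotype and time. None of the 10 members passed (edgeR, lowest adjusted p = 0.237 for Nlrc5, with 2 members at an unadjusted p under 0.05; DESeq2 called 0), against 0.888% of all genes. For the change from 0 to 12 h, 0.726% of all genes differed between genotypes and no member did by edgeR, with 0 at an unadjusted p under 0.05; DESeq2 gave no adjusted p for any of the 10. The intervals are wide: for Nlrp3 they run to a KO excess of 1.404 on the log2 scale, so a larger rise in KO cells is neither shown nor bounded closely.

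Marker transcripts of other cells moved with genotype too. The 10 macrophage markers summed to 3337 to 3504 CPM in resting WT and 2389 to 2615 CPM in resting KO, and to 2507 to 2584 and 2030 to 2279 CPM at 12 h. In the averaged comparison 9 of these 10 were lower in KO and 1 was higher. Of 10 neutrophil markers 6 were tested and all 6 were lower in KO, with sums of 375 to 412 CPM in WT and 220 to 268 CPM in KO at rest. The dendritic list of 9 summed to 3144 to 3304 CPM in WT and 3246 to 3549 CPM in KO at rest, which overlap, and to 2533 to 2910 and 3209 to 3299 CPM at 12 h, which do not. Of these 9 markers 7 were tested, and on average over times 5 were higher in KO and 1 was lower. The part of these shifts in the differences of Nlrc5, Casp1 and Ripk2 was not tested. With time the neutrophil sum in WT was highest at 6 h (637 to 975 CPM), the time at which Ripk2 was lowest, and its part in that result was not tested either.

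**Figure D4:**
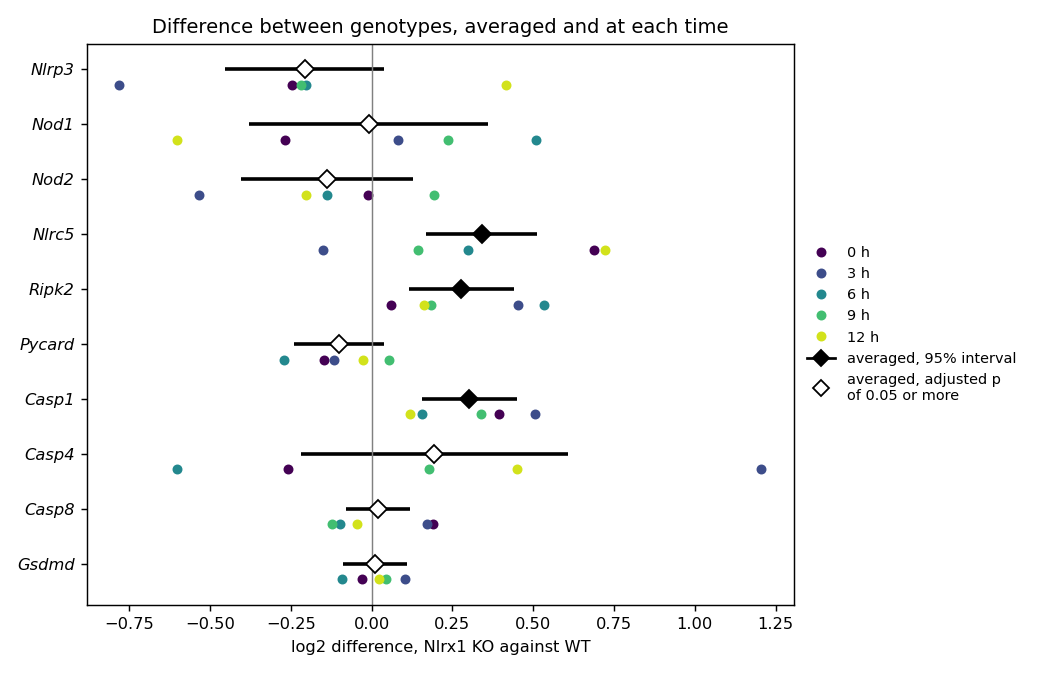
Log2 difference of Nlrx1 KO against WT (horizontal axis) for each gene. Diamonds give the difference averaged over the 5 times with its 95% interval, filled where the adjusted p was under 0.05, and coloured points the difference at each time. Nlrc5, Ripk2 and Casp1 are filled, between 0.28 and 0.34, and the points of Nlrp3 and Casp4 fall on both sides of 0.

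Other genes of these pathways were followed as 6 lists. Their counts at 12 h stand beside the shares of all genes called, 9.64% higher and 8.47% lower in WT and 8.13% and 6.58% in KO, and their averaged counts beside 12.6% higher and 12.2% lower in KO. Of 14 further NOD-like receptor family genes 11 were tested, and 3 rose at 12 h in each genotype with none lower, with list medians of 0.61 in WT and 0.54 in KO beside the medians over all genes given above. Nlrc4, whose product forms the inflammasome for flagellin and secretion-system proteins, rose by 0.96 ± 0.23 in WT and 1.03 ± 0.23 in KO. Naip2, one of its upstream receptors, rose from 51.3 ± 3.01 to 77.2 ± 2.84 CPM in WT (0.59 ± 0.09, adjusted p = 1.96e-05) and from 67.5 ± 4.57 to 98.1 ± 10.1 CPM in KO (0.54 ± 0.09, adjusted p = 6.06e-05). Naip6 rose in WT by 0.69 ± 0.19, a call that was lost without WT 0 h replicate 2 (adjusted p = 0.0806) or WT 12 h replicate 2 (0.0502), and Naip5 rose in KO by 1.09 ± 0.24. Averaged over times, 6 of the 11 were higher in KO, among them Nlrc4 (0.41), Naip2 (0.33), Naip5 (0.41) and Naip6 (0.47), and the 1 lower was Nlrx1. The Naip genes are near-identical copies whose reads the counting could split, so the single members are uncertain.

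Among 21 further inflammasome sensors, regulators and exits 20 were tested. In WT 4 rose and 1 fell (9.64% and 8.47% of all genes), and in KO 3 rose and 3 fell (8.13% and 6.58%). The list medians were 0.08 and -0.07. The 1 of 20 that fell in WT is no larger a share than the 8.47% of all genes that fell. The interferon-inducible GTPases Gbp5, which aids NLRP3 and the non-canonical pathway, and Irgm1 rose in both genotypes, Gbp5 by 1.14 ± 0.28 in WT and 1.19 ± 0.27 in KO and Irgm1 by 1.09 ± 0.25 and 1.02 ± 0.24. Gbp2 rose in WT by 0.58 ± 0.12 and was higher in KO on average by 0.75 ± 0.05 (adjusted p = 4.13e-11), with resting levels of 88.5 ± 9.53 CPM in KO and 50.1 ± 6.99 CPM in WT. Tlr4, the lipopolysaccharide receptor, fell in KO by 2.62 on the log2 scale (SE 0.88, adjusted p = 0.0465), a call lost in 17 of 36 alternatives. Its KO libraries were at 171.7, 129.7 and 136.9 CPM at rest and at 24.4, 21.0 and 26.4 CPM at 12 h. In WT its resting libraries were at 137.0, 21.8 and 108.3 CPM and its 12 h libraries at 24.1, 24.5 and 22.9 CPM. The WT difference was not called, with 1 resting library already near the 12 h level, and the 12 h levels of the genotypes overlapped. In the averaged comparison Nek7 (0.16), Panx1 (0.27) and Gsdme (0.39) were also higher and Pstpip1 (-0.14) and Card19 (-0.14) lower in KO. The call of Nek7 was lost in 24 of 35 alternatives (adjusted p up to 0.3498), that of Panx1 with no count filter (0.116), and that of Gsdme with no count filter (0.105) or without KO 3 h replicate 3 (0.0578).

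Of 6 genes of IL-1 output 5 were tested, and Il1b, which encodes the precursor that caspase-1 cuts, had the largest rise among the 6 lists in both genotypes. It went from 25.9 ± 3.31 to 184.2 ± 8.87 CPM in WT and from 51.7 ± 3.57 to 277.4 ± 14.9 CPM in KO, a rise of 2.82 ± 0.10 and 2.42 ± 0.09. Il1a, the related alarm cytokine, rose by 2.37 ± 0.11 and 2.26 ± 0.11. Both were higher in KO on average, Il1b by 0.74 ± 0.05 (adjusted p = 2.58e-12) and Il1a by 0.65 ± 0.05 (adjusted p = 2.82e-10), and the rise itself did not differ by test (adjusted p = 0.197 and 0.884). Il1rn, the receptor antagonist, rose in KO (1.13 ± 0.30, adjusted p = 0.0147) and was lower there on average (-0.39 ± 0.14, adjusted p = 0.0384). The rise was lost with no count filter (0.0939), on leaving out replicate 1 (0.0699) or 3 (0.0878) of KO at 0 h, replicate 1 (0.0682) or 2 (0.0568) of KO at 12 h, and in the fit of the 6 libraries alone (0.178). The averaged call was lost in 15 of 35 alternatives (adjusted p up to 0.0773). Il18, the other cytokine that caspase-1 cuts, did not pass the count filter.

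On the NOD side, 26 genes of signalling through RIPK2 were tested. In WT 6 rose and none fell (9.64% and 8.47% of all genes), and in KO 4 rose and 1 fell (8.13% and 6.58%). The list medians were 0.15 and -0.07. The 1 that fell in KO is a share below the 6.58% of all genes. Tnfaip3, the deubiquitinase A20 that restrains RIPK2 and NF-kappaB, rose from 89.5 ± 12.3 to 326.7 ± 34.1 CPM in WT (1.87 ± 0.16) and from 91.6 ± 8.25 to 388.9 ± 19.6 CPM in KO (2.08 ± 0.16). Birc3, a ubiquitin ligase for RIPK2, rose by 0.61 ± 0.12 and 0.64 ± 0.12, and Slc15a3, a carrier of muramyl dipeptide, by 0.44 ± 0.08 and 0.64 ± 0.08. Itch, a ubiquitin ligase that restrains the pathway, fell in KO by 0.34 on the log2 scale and was higher there on average by 0.24 ± 0.02.

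Of 10 genes of the caspase-8 complex and necroptosis 2 rose and 1 fell in WT (9.64% and 8.47% of all genes) and 1 rose in KO (8.13%). Cflar, which encodes the caspase-8 inhibitor cFLIP, rose by 2.50 ± 0.27 in WT (adjusted p = 7.97e-07) and 1.47 ± 0.26 in KO (adjusted p = 0.000322), from 57.6 ± 10.98 and 139.0 ± 34.5 CPM at rest to 327.5 ± 13.3 and 385.5 ± 18.7 CPM, beside a Casp8 level that was not called. No gene of this list, Cflar included, was called by edgeR for a difference between genotypes in the change from 0 to 12 h (0.726% of all genes). Cflar was also higher in KO on average (0.51 ± 0.12), with Zbp1 (0.53 ± 0.13) and 3 others. Of 11 partners and MHC class I targets of NLRC5, 3 rose in WT (B2m, Tap1 and H2-D1), against 9.64% of all genes. In KO 3 rose (Tap1, Tapbp and H2-D1), against 8.13%. The WT calls of B2m and Tap1 were lost in 4 and 5 of 36 alternatives, and the KO calls of Tap1 and Tapbp in 6 each. On average 3 were higher in KO, B2m, Tap1 and H2-K1, against 12.6% of all genes. Of these averaged calls that of Tap1 was lost in 21 and that of H2-K1 in 19 of 35 alternatives. B2m was higher in KO by 0.24 ± 0.04 (adjusted p = 0.000325) and H2-D1 rose with time by 0.23 ± 0.07 in WT and 0.36 ± 0.07 in KO. The WT call of H2-D1 was lost with no count filter (0.132), without 0 h replicate 1 (adjusted p = 0.0681) or 2 (0.0612) and without 12 h replicate 1 (0.110) or 2 (0.0868), and its KO call in the fit of the 6 libraries alone (0.0760).

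Over the 6 lists, 13 of 22 calls in WT at 12 h, 12 of 21 in KO at 12 h and 15 of 29 in the averaged comparison passed under every alternative.

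**Figure D5:**
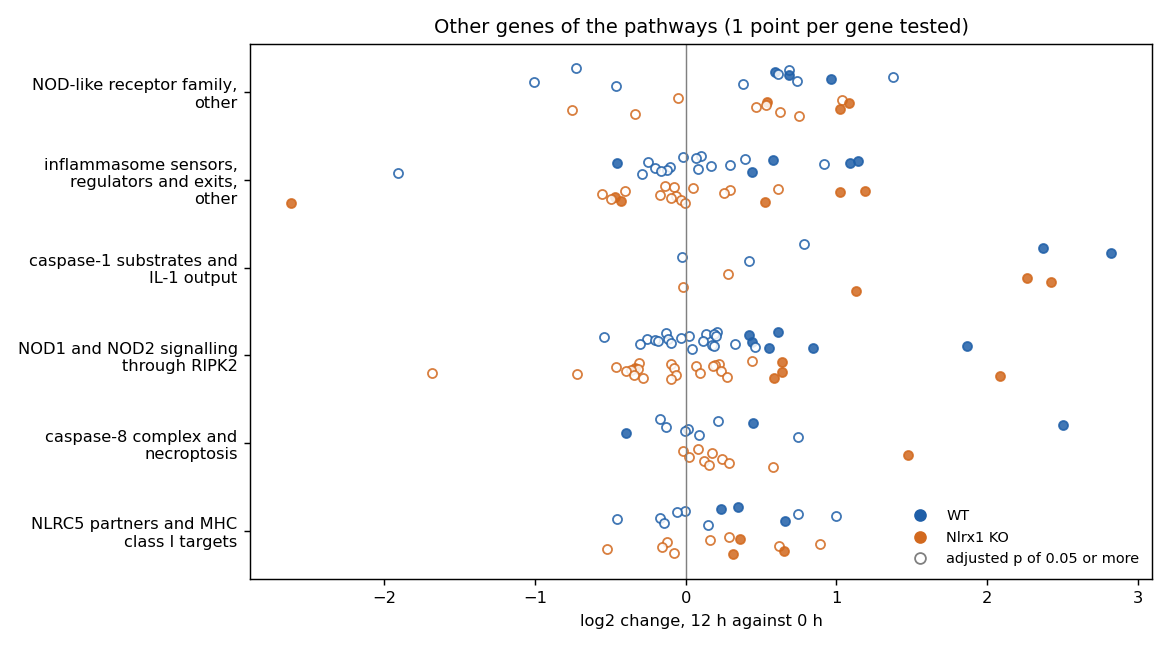
Log2 change from 0 to 12 h (horizontal axis) of every tested gene of the 6 pathway lists (rows), in WT (blue) and Nlrx1 KO (orange). Filled points passed an adjusted p of 0.05. The IL-1 genes Il1b and Il1a lie between 2.26 and 2.82 in both genotypes, while most genes of the other lists lie within 1 of 0.

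The genes whose levels ran most like each sensor were found from Pearson's r over the 10 group means of log2 CPM. They are given as a description without a test. Closest to Nlrp3 were Junb (r = 0.971), an AP-1 subunit, Cd14 (0.962), the lipopolysaccharide co-receptor, and Rabgef1 (0.961). Closest to Nlrc5 were the interferon-inducible Ifi27l2a (0.962), Gm20559 (0.946) and Zup1 (0.938). For Nod1 they were Neu1 (0.938), Tnfrsf26 (0.937) and St14 (0.929), and for Nod2 Gm43661 (0.956), Dio2 (0.943) and Parp10 (0.930).

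The authors' deposited tables list only genes with an adjusted p under 0.05 and a change of at least 0.5 on the log2 scale. Members appear in them 5 times. The authors' deposited table for KO gives Nlrp3 a change of 1.95 and Casp4 one of 1.74 at 12 h. The authors' deposited tables for WT give Nlrp3 1.28 at 12 h and Ripk2 -0.89 at 6 h (adjusted p = 0.0428), and the 5th entry is the 3 h difference of Nlrp3 given above. Nod1, Nod2 and Nlrc5, called here in WT at 12 h, are in none of the 13 tables.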

How the data were processed

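RNA sequencing libraries of 30 samples in 10 groups of genotype and time (3 each) were made with a strand-specific poly(A) kit, per the labels' protocols. Whole-number counts for each Ensembl gene were deposited by the authors in 1 table, whose values and differing totals are those of raw counts. The tools were HISAT2, StringTie, DESeq2 and Trimmomatic 0.35, with build GRCm38, per the submitters' processing notes; their order, neither their annotation release nor the strand setting of the counting is stated, and counts taken from StringTie can be rounded estimates. The deposited tables of 13 comparisons hold the authors' log2 fold changes, p-values and adjusted p-values, per the file headers. Their 78 deposited columns of normalized signal equalled the counts divided by 1 factor per library and were not used further. Every per-sample column had its sample (0 without).

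Other motifs searched upstream are not reported here. Genes were named from GENCODE M21, in which 54495 of 54532 identifiers were found and 37 were not. edgeR 4.0.16 in R 4.3.3 was used: filterByExpr (minimum count 10) kept 12393 genes and 98.66% of the counts, libraries were scaled by TMM (factors 0.923 to 1.07), and a robust quasi-likelihood model with 10 group coefficients was fitted to the 30 libraries together (common dispersion 0.01863, a biological coefficient of variation of 13.7%, residual degrees of freedom 20). Two-sided p-values were adjusted over the 12393 genes (Benjamini-Hochberg) and called under 0.05; errors of log2 changes are standard errors of the fit, and intervals are at 95%. CPM are counts over the scaled totals. Intervals include the spread between libraries as estimated by the fit. The level allowed by 0 counts (3 counts) covers counting error alone, and reads carried no molecular identifiers. The steps were tested on simulated data. No pair of libraries within a group (30 pairs) agreed within sampling noise.

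Each later time was compared with 0 h and with the time before it in its genotype, and KO with WT at each time and averaged, with an F test of the interaction. Alternatives were DESeq2 1.42.0, DESeq2's size factors in edgeR, no count filter, a minimum count of 30, the 6 libraries compared alone, a replicate block and leaving out each library. All 10 members are named, list genes where they were called, and the 3 genes of highest r per sensor. The members, lists and tests were chosen with earlier results of these data known.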

Additional observations from a re-analysis of the deposited data

How the results depend on the processing

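Of 20 calls of single members, 12 passed under every alternative that tested them, and none changed direction. With no count filter the call of Ripk2 in the averaged comparison was lost. Members called also fell without that filter from 2 to 1 in WT at 9 h, from 4 to 2 in WT at 12 h and from 1 to 0 in KO at 6 h. At a minimum count of 30, which left Nod1 and Nod2 untested and so 8 of 10 members, these counts were 1, 2 and 0, and 0 in KO at 9 h. DESeq2 called 1 in WT at 9 h, 3 in WT at 12 h (Nlrc5, Nlrp3 and Nod1), and 0 in KO at 9 h because it gave Nod1 no adjusted p there. The fit of only the 6 libraries compared called 0 in KO at 6 h, and was not run for the averaged comparison and the interaction, which use more libraries. Leaving out 1 library at a time gave 1 to 3 called members in WT at 9 h, 2 to 5 in WT at 12 h, 0 to 1 in KO at 6 h and 1 to 2 in KO at 9 h, and left the counts of the other comparisons with 0 h, of the averaged comparison and of the interaction as they were. DESeq2's size factors changed no call of a member.

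Sign changes occurred for 2 members that were not called. Without 1 library each, Pycard ran from -0.213 to 0.00938 in WT at 12 h and from -0.208 to 0.11 in KO at 12 h, and Casp1 from -0.156 to 0.0566 in KO at 12 h. Pycard in KO at 12 h was also at 0.00013 with DESeq2's size factors, 0.00766 at a minimum count of 30 and 0.00062 in DESeq2. The cause was not tested.

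The replicate numbers did not pair the samples: over 135 pairs with the same number the correlation of their deviations ran from -0.074 to 0.096, none over 0.1, and 11 of 30 libraries were closest to their own number. With the replicate block the members called numbered 1, 2 and 4 in WT at 6, 9 and 12 h, 1, 1 and 3 in KO, 3 in the averaged comparison and 0 in the interaction, the same as without it.

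Depth limits Nod1, Nod2 and Casp4 most, whose low counts per library are given beside their values.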
